A study of Homo sapiens with 18 samples.

Results

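The cytosolic ribosome is built from ribosomal RNA and a fixed set of ribosomal proteins, those of the small subunit named RPS and those of the large subunit named RPL. Their mRNAs are among the most abundant of a growing cell, and most of them start with a C followed by an unbroken run of pyrimidines, the terminal oligopyrimidine (TOP) motif, through which mTORC1 and the RNA-binding protein LARP1 control their translation and stability together. A few ribosomal proteins have a second gene, a paralog such as RPL22L1 beside RPL22, whose product can take the place of its counterpart or has duties outside the ribosome. The genes described here are the protein-coding genes outside chromosome Y whose symbol is RPL or RPS with a number, RPLP0 to RPLP2 or RPSA. The rule took 85 of the 58288 genes in the files: 46 proteins of the large subunit, 31 of the small subunit and 8 paralogs, which are given apart.

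Kuramochi, OVCAR4 and OVCAR8 are human high-grade serous ovarian cancer (HGSOC) lines, and all of them carried green fluorescent protein. In the 3D group of each line, the cancer cells had been seeded on a 3D omentum culture, primary human omental fibroblasts in collagen I under a layer of primary mesothelial cells, and were then recovered by fluorescence-activated sorting. In the plastic group of each line, cells were grown without omental cells and passed through a sham sort. Each line and culture had 3 RNA-seq libraries from independent experiments as the methods state, 18 in all, at passages 35 to 45 for Kuramochi, 45 to 55 for OVCAR4 and 30 to 40 for OVCAR8. The question asked of each line was how the ribosomal protein mRNAs of cells from the 3D culture stood against those of cells on plastic. Adipocytes, the main cell type of the omentum, are not part of the culture.

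Libraries held 28415048 to 43142540 counts, with a median of 33980300. Of the 85 genes, 83 passed the filter on low counts. The paralogs RPL3L, known from muscle, and RPL10L, known from testis, did not: their highest levels were 0.0953 and 0.0657 counts per 1000000 (CPM, after TMM scaling of library sizes). A few library pairs of 1 group differed by little more than sampling noise: OVCAR4 3D 4 and 6, OVCAR8 3D 61 and 62, and OVCAR8 plastic 4 and 62 had a chi-square per degree of freedom of 1.98, 2.75 and 3.12, against 9.43 to 114 for all other pairs. Of 15 ovarian cancer line markers, 13 were at a mean of 1 CPM or more in both cultures of Kuramochi and 14 in both of OVCAR4, but 10 in 3D and 8 on plastic in OVCAR8, with PAX8 at 55.7 CPM or more in every library, whereas SOX17 and MECOM were at most 0.0657 and 0.0329 CPM in OVCAR8. Of 14 fibroblast markers, 11, 13 and 11 rose in the 3D libraries of Kuramochi, OVCAR4 and OVCAR8 at an adjusted p under 0.05. For this and the marker counts below, 14.4, 15.2 and 7.51% of all genes rose and 12.8, 11.9 and 3.32% fell in these lines. The summed level of the fibroblast markers ran over 791 to 1669 CPM in 3D against 485 to 542 CPM on plastic in Kuramochi, over 160 to 1288 against 31.6 to 32.2 CPM in OVCAR4, and over 706 to 3079 against 662 to 726 CPM in OVCAR8. On plastic 3, 3 and 6 of the 14 markers were at 0 in every library of these lines. Of 9 mesothelial markers tested, 3, 5 and 2 rose in 3D and 2, 0 and 0 fell in these lines, and LRRN4 (log2 0.80, 1.33 and 0.92) and CALB2 rose in all 3. CALB2 had 0.309 to 1.37 CPM in 3D in Kuramochi, where its count on plastic was 0 in every library. Summed mesothelial markers ran over 234 to 269 CPM in 3D against 282 to 461 CPM on plastic in Kuramochi, over 150 to 161 against 142 to 212 CPM in OVCAR4, and over 218 to 268 against 174 to 190 CPM in OVCAR8. Of 6 endothelial and leukocyte markers tested, 4, 1 and 2 rose and 1, 0 and 0 fell. The 1 that rose in OVCAR4, CD68, and the 1 that fell in Kuramochi, VWF (log2 -1.02), were near the shares of all genes. CD68, known from macrophages, rose in all 3 lines (0.92, 1.06 and 2.00), but plastic libraries held it too, at 20.0 to 22.6 CPM in OVCAR8. PECAM1 and CD14 were at -0.53 and -0.49 in OVCAR4 and not called. The part of these other cell types in the results below was not tested. In such bulk samples, fewer cells of a type and less RNA per cell cannot be told apart.

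Start sequences of the members show what these mRNAs share beyond their names. RefSeq start sites on GRCh38.p14 were at hand for 68 of the 85 genes. A TOP start was counted where the first base was C and at least the next 4 were C or T on the strand of the gene, and 47 of the 68 genes (69.1%) had one, against 5.14% of all 27305 symbols with a start. Among the 77 subunit proteins 46 of 62 had a TOP start, among the paralogs 1 of 6, namely RPL22L1. The lines below show 15 bases before and 15 bases from the start for members on which the results turn, with the run of pyrimidines from the start in capitals. They are RPS6, whose product is the substrate of S6 kinase, the stalk protein RPLP0, RPSA, RPS19 and RPL12, and then pairs of a paralog and its counterpart. The windows lie at chr9:19380222-19380251 (minus strand) for RPS6, chr12:120201097-120201126 (minus) for RPLP0, chr3:39406705-39406734 (plus) for RPSA, chr19:41860240-41860269 (plus) for the first listed start of RPS19 and chr9:127451392-127451421 (minus) for RPL12.
RPS6: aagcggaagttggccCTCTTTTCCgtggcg
RPLP0: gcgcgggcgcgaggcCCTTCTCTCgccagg
RPSA: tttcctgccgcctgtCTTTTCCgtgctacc
RPS19: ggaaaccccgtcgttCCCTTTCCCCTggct
RPL12: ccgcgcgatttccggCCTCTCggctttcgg
All of them have the motif, with runs of 6 to 11 bases.

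In 4 pairs the paralog and its counterpart can be set side by side. RPS27 and RPS27L lie at chr1:153990747-153990776 (plus) and chr15:63157463-63157492 (minus), RPL22 and RPL22L1 at chr1:6199581-6199610 (minus) and chr3:170870181-170870210 (minus), RPL36A and RPL36AL at chrX:101390996-101391025 (plus) and chr14:49620612-49620641 (minus), and RPL26 and the first start of RPL26L1 at chr17:8383179-8383208 (minus) and chr5:172958714-172958743 (plus).
RPS27: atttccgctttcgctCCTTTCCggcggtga
RPS27L: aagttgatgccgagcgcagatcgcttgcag
RPL22: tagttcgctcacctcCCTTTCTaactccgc
RPL22L1: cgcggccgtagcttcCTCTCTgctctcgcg
RPL36A: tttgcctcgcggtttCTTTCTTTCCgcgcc
RPL36AL: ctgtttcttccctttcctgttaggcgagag
RPL26: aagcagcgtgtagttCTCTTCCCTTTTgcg
RPL26L1: agtcttccaggggtcggcgaacgaaacgcg
The counterpart carried a TOP start in each pair, and of the paralogs RPL22L1 did, while the listed starts of RPS27L, RPL36AL and RPL26L1 did not begin with such a run. RPL7L1, whose start is at chr6:42879601-42879630 (plus), had none either, and the listed start of RPS28 at chr19:8321481-8321510 (plus) began with an A.
RPL7L1: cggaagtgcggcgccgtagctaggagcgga
RPS28: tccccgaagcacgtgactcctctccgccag
A start not counted as TOP says only that the run does not begin at the listed base. The windows of RPS28 and RPL36AL hold pyrimidine runs beside or across it, and a gene can have starts that are not listed.

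On plastic, the members spanned a wide range of levels. Per kilobase of the canonical transcript, the mean over the 9 plastic libraries was highest for RPS18 at 3016, RPL8 at 2427, RPS27 at 2173, RPS2 at 1879 and RPS24 at 1757 CPM. All 5 are subunit proteins, RPS2 and RPS18 of the small subunit and RPL8 of the peptidyl transferase region of the large subunit among them. The 5 lowest were paralogs: RPL39L at 25.8, RPL22L1 at 14.4, RPS27L at 5.66, RPL10L at 0.0275 and RPL3L at 0.0137 CPM per kilobase. Some canonical transcripts carry long annotated ends, with 20 members at 2000 bases or more and RPL37 at 7573. Per kilobase of coding sequence, RPL41, which encodes the shortest protein of the set in 75 coding bases, was first at 11260 CPM, followed by RPS18 at 3632, RPL8 at 3369 and RPL37 at 3334. The paralogs RPL7L1, RPL26L1, RPS27L, RPL39L, RPL22L1, RPL10L and RPL3L held the last 7 places on that scale, with RPL7L1 at 223 and RPL22L1 at 74.8 CPM per coding kilobase.

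Together, the members took a smaller share of the counts in the 3D libraries of every line. Kuramochi had 3.75, 3.19 and 3.62% of its counts in these genes in 3D libraries 2, 4 and 8, against 5.14, 6.58 and 6.27% on plastic. OVCAR4 had 3.68, 3.57 and 3.62% in 3D libraries 42, 4 and 6, against 4.87, 6.82 and 5.13% on plastic. OVCAR8 had 5.81, 5.84 and 5.93% in 3D libraries 4, 61 and 62, against 6.45, 6.75 and 6.40% on plastic. The cultures did not overlap in any line, and the mean share in 3D was 0.587, 0.647 and 0.897 of that on plastic in Kuramochi, OVCAR4 and OVCAR8. Plastic library 4 of OVCAR4 stood above the rest of its group, and plastic library 2 of Kuramochi below. The fibroblast collagen gene COL1A2 was lowest in Kuramochi 3D 4 (38.2 CPM, against 180 and 275 CPM in 3D 2 and 8), in OVCAR4 3D 42 (31.9 CPM, against 308 and 303 CPM in 3D 4 and 6) and in OVCAR8 3D 4 (8.3 CPM, against 599 and 367 CPM in 3D 61 and 62). The share of ribosomal protein counts in each of these libraries was below that of every plastic library of its line. In CPM summed over the members, OVCAR8 3D 4 was the highest of its 3D group (56504, against 51989 and 52861 CPM). OVCAR4 3D 42 was the highest as well (37054.5, against 36124.5 and 36957 CPM). Kuramochi 3D 4 was the lowest of its group (31951, against 38862 and 37063 CPM). The part of the fibroblast transcripts in the share was not tested. The share in transcripts of the mitochondrial genome was 4.64% in 3D and 4.70% on plastic in Kuramochi, 7.15 and 7.01% in OVCAR4, and 1.18 and 2.15% in OVCAR8.

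**Figure D1:**
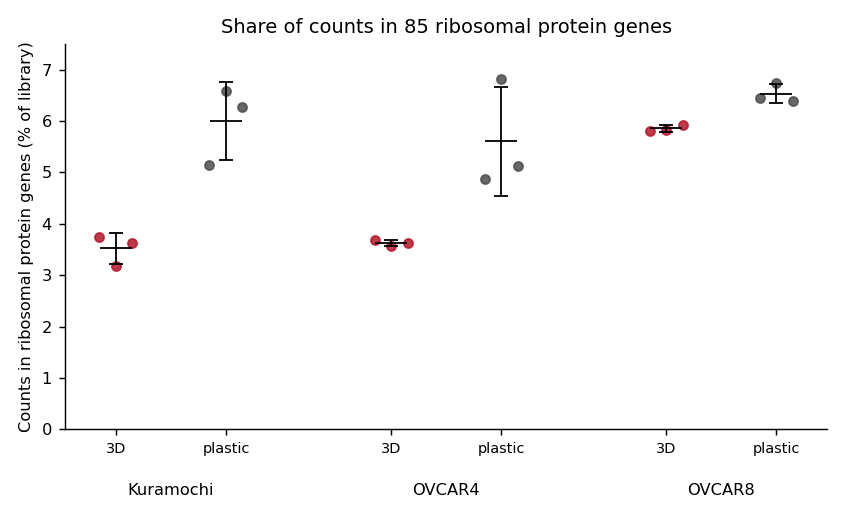
Share of all counts (%) in the 85 ribosomal protein genes, 1 point per library, for 3D and plastic of each line. Horizontal bars are means and error bars SD (n = 3). The 3D libraries of Kuramochi and OVCAR4 lie between 3.19 and 3.75%, and those of OVCAR8 between 5.81 and 5.93%, all below the plastic libraries of their line.

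In Kuramochi, nearly every member fell. Of the 83 tested, 81 were lower in 3D and 0 higher at an adjusted p under 0.05 (edgeR's quasi-likelihood test with Benjamini-Hochberg adjustment over all 22023 genes), where 12.8% of all genes were lower and 14.4% higher. The median log2 difference of the members was -0.76, with a range of -1.04 to 0.03, against a median of 0.02 over all genes. All 77 subunit proteins were lower, and in 80 of the 83 genes every 3D library was below every plastic library, which 15.5% of all genes showed. At least 2-fold lower were 5 members, against 2.64% of all genes, and they were RPS28, RPS15, RPS19, RPS2 and RPS21, all of the small subunit. The lowest value of the large subunit was just short of that cutoff (log2 -0.999). The subunit medians were close, at -0.78 for the small and -0.76 for the large.

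RPS28 had the largest fall in Kuramochi, with 117, 88.1 and 113 CPM in 3D against 176, 264 and 213 CPM on plastic (log2 -1.04 ± 0.17 SE, adjusted p = 0.000492). RPS19, the gene most often mutated in Diamond-Blackfan anemia, had 1066, 764 and 890 CPM in 3D against 1411, 2351 and 1796 CPM on plastic (log2 -1.03 ± 0.17). RPS15 and RPS2 were at log2 -1.03 and -1.02, and RPS21 had 309, 251 and 299 CPM in 3D against 441, 719 and 560 CPM on plastic. In each of these genes the highest 3D library lay below the lowest plastic library. The proteins of the large subunit stalk, which recruits translation factors, fell as well, with RPLP0 at log2 -0.74, RPLP1 at -0.86 and RPLP2 at -0.97. RPS6 was at log2 -0.64, and RPL5 and RPL11, which with the small ribosomal RNA of the large subunit can bind MDM2, were at -0.66 and -0.74. RPS2 shares 25.9% of its exon bases with genes on its strand, and RPS28 shares 20.6% with genes on the other strand, so the counts of both are less certain than those of genes without overlaps.

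In OVCAR4, 79 of 83 members were lower and 0 higher, where 11.9% of all genes were lower and 15.2% higher. The median log2 difference was -0.68 (range -0.94 to 0.03), against 0.04 over all genes, and in 82 of 83 members the 3D libraries all lay below the plastic ones, against 20.6% of all genes. At least 2-fold lower were 0 members, against 1.86% of all genes. With the 3 close library pairs named above each summed to 1 sample, those of OVCAR8 included, 44 members were lower, and 64 were without plastic library 4. RPL10 did not pass in OVCAR4 (log2 -0.31 ± 0.14, adjusted p = 0.115). RPL10, the last protein to join the large subunit, shares 50.5% of its exon bases with genes on the other strand and is therefore uncertain.

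The largest falls in OVCAR4 were those of 2 paralogs and 3 large subunit proteins. RPL39L had 16.0, 12.9 and 11.2 CPM in 3D against 21.8, 33.1 and 22.4 CPM on plastic (log2 -0.94 ± 0.21, adjusted p = 0.00415). RPL22L1 had 10.3, 8.51 and 8.65 CPM in 3D against 17.8, 20.1 and 14.2 CPM on plastic (log2 -0.92 ± 0.19, adjusted p = 0.00278). Neither gene overlapped between the cultures. RPL35, which sits at the exit of the peptide tunnel, was at log2 -0.91, RPL36 at -0.85 and RPL8 at -0.84. The stalk proteins RPLP0, RPLP1 and RPLP2 were at -0.59, -0.66 and -0.64, RPS6 at -0.63, and RPL5 and RPL11 at -0.59 and -0.67. In both Kuramochi and OVCAR4, 79 members were lower.

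In OVCAR8 the members shifted less. The median log2 difference was -0.26, against 0.02 over all genes, 81 of 83 values were below 0, and 5 members were lower and 0 higher, where 3.32% of all genes were lower and 7.51% higher. DESeq2 called 9 lower and 0 higher. In 76 members all 3D libraries lay below all plastic libraries, against 19.8% of all genes, and in 1 (RPL22L1) above, against 21.6%. The count of 5 depends on single libraries: it was 0 without OVCAR8 3D 61 or 62 or without any 1 of OVCAR8 plastic 4, 61 and 62, it was 11 without OVCAR8 3D 4 or Kuramochi plastic 2, 10 without OVCAR4 plastic 4, 2 without Kuramochi plastic 8 and 3 without OVCAR4 3D 4. Fitting each line by itself gave 45 lower and 1 higher, while summing the close libraries gave 0. The F-test of whether the culture difference differed between lines called 2 of the 83 members, against 6.17% of all genes. That count also depends on single libraries, with 35 without Kuramochi plastic 2, 6 without OVCAR4 plastic 4, 5 without OVCAR4 plastic 42 and 1 without any 1 of 11 others, and it was 34 with no filter on low counts, 11 by DESeq2 and 0 with the close libraries summed.

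**Figure D2:**
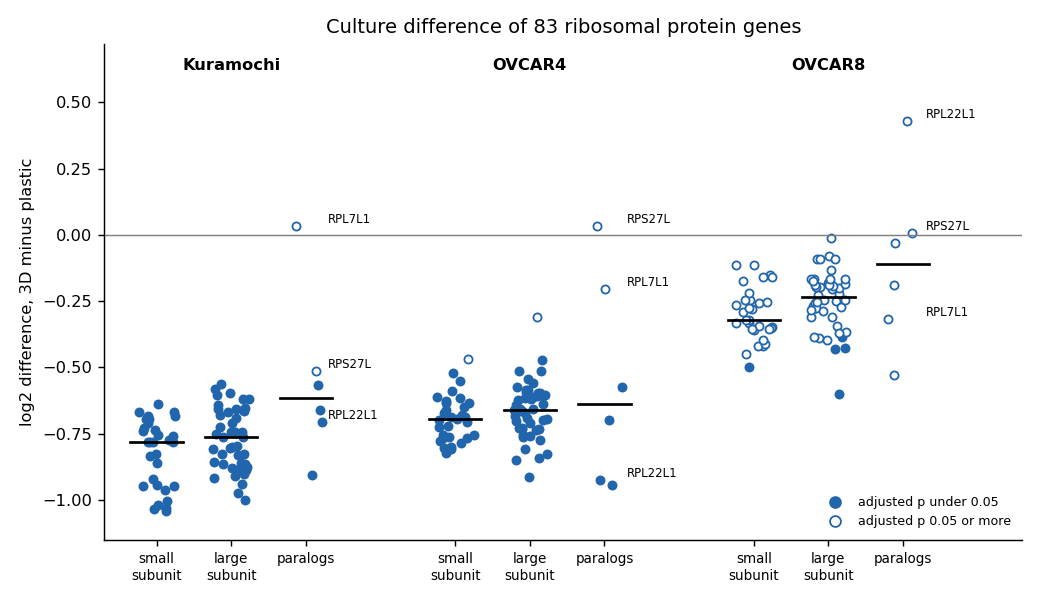
Log2 difference, 3D minus plastic, of the 83 ribosomal protein genes tested, by line and by small subunit, large subunit and paralogs. Filled points have an adjusted p under 0.05, open points do not, and bars are medians. The points of Kuramochi and OVCAR4 are nearly all filled and below 0, those of OVCAR8 lie closer to 0 with 5 filled, and RPL22L1 is above 0 in OVCAR8 only.

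The 5 members lower in OVCAR8 were also lower in both other lines: RPL5, RPL6, RPL7, RPL15 and RPSA, where 0.99% of all genes were lower in all 3 lines. RPL6 had 893, 686 and 683 CPM in OVCAR8 3D against 1143, 1111 and 1173 CPM on plastic (log2 -0.60 ± 0.15, adjusted p = 0.0148). In Kuramochi and OVCAR4 it was at log2 -0.62 and -0.73. RPSA, a small subunit protein first described as a laminin receptor, had 1271, 1073 and 1037 CPM in OVCAR8 3D against 1570, 1645 and 1564 CPM on plastic (log2 -0.50 ± 0.14, adjusted p = 0.032). Its differences in Kuramochi and OVCAR4 were -0.94 and -0.69. RPL5, RPL7 and RPL15 were at log2 -0.43, -0.43 and -0.39 in OVCAR8. In RPL6 and RPSA the OVCAR8 3D library 4, which had the least COL1A2, was the highest of its group and below every plastic library. The part of the fibroblast transcripts in these levels was not tested. All 5 calls in OVCAR8 rest on the libraries named above.

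The stalk proteins RPLP0, RPLP1 and RPLP2 were at log2 -0.39, -0.29 and -0.17 in OVCAR8 and did not pass (lowest adjusted p = 0.059, for RPLP0). RPLP0 is often used as a reference gene in PCR assays. It had 1874, 1637 and 1638 CPM in OVCAR8 3D against 2270, 2225 and 2234 CPM on plastic. In OVCAR4 it had 1002, 967 and 998 CPM in 3D against 1360, 1752 and 1364 CPM on plastic, and in Kuramochi 929, 727 and 827 CPM in 3D against 1197, 1528 and 1435 CPM on plastic. All 3 lines kept the cultures apart. RPS6 and RPL11 were at -0.27 and -0.23 in OVCAR8, with adjusted p of 0.231 and 0.335.

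RPL12 and RPL22L1 were the members whose culture difference differed between lines. RPL12, a protein of the stalk base, had 869, 843 and 864 CPM in Kuramochi 3D against 1173, 2017 and 1646 CPM on plastic, and 420, 361 and 397 CPM in OVCAR4 3D against 554, 783 and 565 CPM on plastic. OVCAR8 had 633, 663 and 683 CPM in 3D against 659, 680 and 657 CPM on plastic, and here the cultures overlapped. The log2 differences were -0.91 ± 0.16, -0.69 ± 0.16 and -0.01 ± 0.16 in Kuramochi, OVCAR4 and OVCAR8 (interaction, adjusted p = 0.0434). That call was lost without any of 12 single libraries (adjusted p of 0.0509 to 0.124) and with the replicate numbers as a block (0.0813), and over all alternatives the adjusted p ran from 0.000215 to 0.324.

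RPL22L1 went opposite ways. It had 21.9, 26.9 and 24.2 CPM in Kuramochi 3D against 28.1, 44.5 and 46.6 CPM on plastic (log2 -0.71 ± 0.18, adjusted p = 0.00941), and its fall in OVCAR4 is given above. In OVCAR8 it had 26.8, 36.8 and 37.6 CPM in 3D against 23.0, 25.6 and 26.5 CPM on plastic (log2 0.43 ± 0.18, adjusted p = 0.135). The interaction passed (adjusted p = 0.0069), and with the close libraries summed it did not (0.155, in a range of 3.5e-07 to 0.155 over the alternatives). The OVCAR8 difference passed without 3D library 4 (log2 0.57, adjusted p = 0.0447), and the Kuramochi one did not without plastic library 4 (0.0504). Over the alternatives the adjusted p ran from 0.00837 to 0.616 in OVCAR8 and from 0.000411 to 0.121 in Kuramochi. OVCAR8 3D 4 had both the lowest RPL22L1 and the lowest fibroblast marker sum of its group (706 CPM, against 3079 and 2132 CPM in 3D 61 and 62), and the part of the fibroblast transcripts in the RPL22L1 level was not tested.

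**Figure D3:**
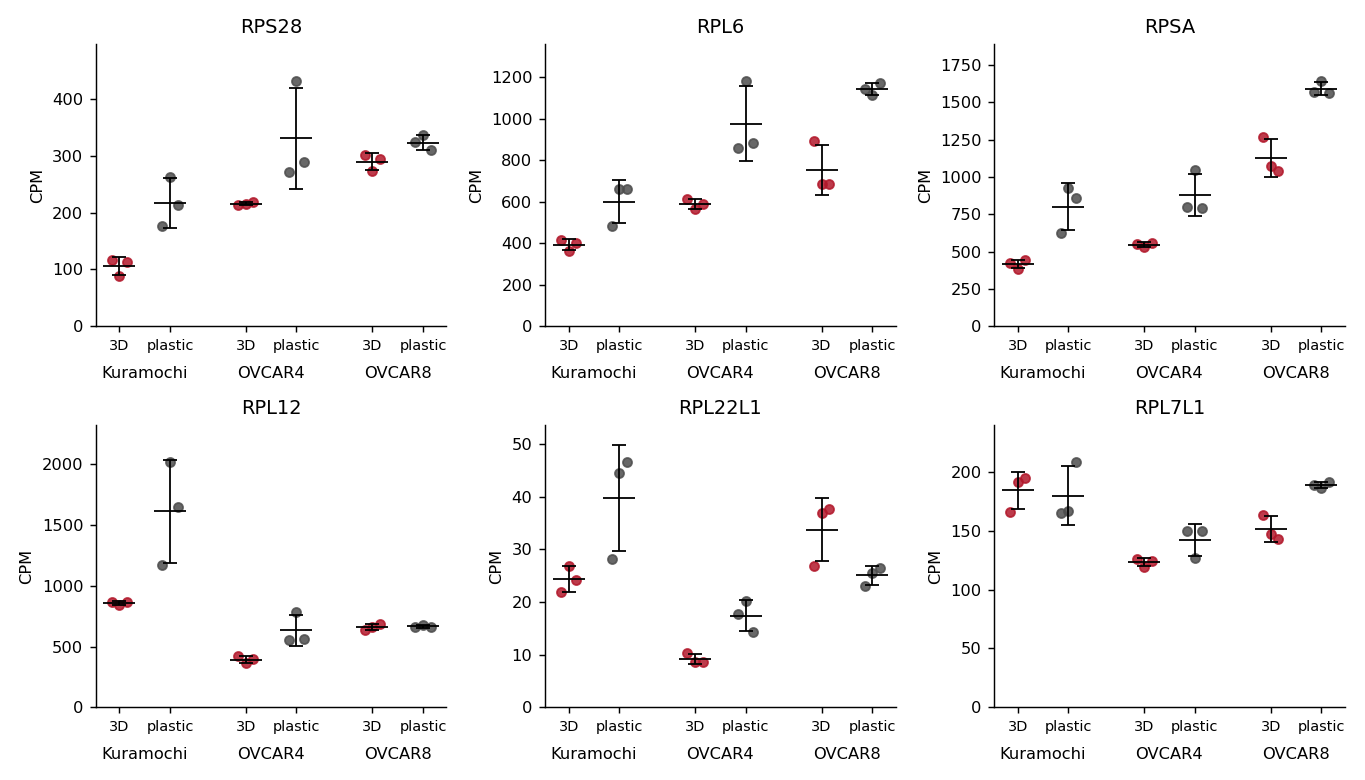
CPM by library of RPS28, RPL6, RPSA, RPL12, RPL22L1 and RPL7L1 in 3D (red) and on plastic (grey) of each line, with means and SD (n = 3). RPS28, RPL6 and RPSA lie lower in 3D in every line, RPL12 does so in Kuramochi and OVCAR4, RPL22L1 is higher in 3D in OVCAR8, and RPL7L1 overlaps between the cultures of Kuramochi.

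Read within each library, the paralogs did not all follow their counterparts. A ratio of 2 genes in 1 library does not depend on scaling, and 18 ratios (6 pairs in 3 lines) were compared by an exact permutation test, 2-sided, for which 0.1 is the smallest p that 3 against 3 libraries can give and 0.3 was the lowest adjusted p. RPL7L1, a nucleolar protein known from ribosome assembly, stood at 22.6, 28.1 and 25.8% of the RPL7 count in Kuramochi 3D against 17.8, 13.9 and 16.1% on plastic. In OVCAR4 it stood at 21.3, 21.3 and 22.4% in 3D against 18, 11.5 and 17.8% on plastic, and in OVCAR8 at 21.0, 21.3 and 20.3% in 3D against 19.8, 18.7 and 19.5% on plastic. The cultures were apart in all 3 lines, by 0.68, 0.49 and 0.11 on the log2 scale, as RPL7 fell while RPL7L1 itself was at log2 0.03 (adjusted p = 0.863), -0.20 (0.197) and -0.32 (0.0795).

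RPS27L, a p53 target in human cells, was the other paralog not called in Kuramochi (log2 -0.51 ± 0.19, adjusted p = 0.0507) or OVCAR4 (0.03 ± 0.18, 0.924), and in OVCAR8 it was at 0.01. It had 50.8, 50.9 and 54.6 CPM in OVCAR4 3D against 55.8, 54.3 and 42.6 CPM on plastic, which overlap. As a share of the RPS27 count it was 6.91, 7.08 and 7.33% in OVCAR4 3D against 6.37, 3.91 and 4.79% on plastic, a log2 difference of 0.53 with the cultures apart. In Kuramochi and OVCAR8 that ratio differed by 0.24 and 0.12, with overlap. Without Kuramochi plastic library 2 RPS27L fell in Kuramochi too (log2 -0.76, adjusted p = 0.00065, in a range of 0.00065 to 0.69 over the alternatives).

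RPL22L1 was 8.29, 12.4 and 12.1% of RPL22 in OVCAR8 3D against 6.21, 6.66 and 7.24% on plastic, and 2.94, 2.72 and 2.70% in OVCAR4 3D against 4.28, 3.50 and 3.42% on plastic. The cultures were apart in both lines, in opposite directions (log2 0.68 and -0.42), while in Kuramochi they overlapped (-0.03). RPL26L1 was 18.5, 10.3 and 10.3% of RPL26 in OVCAR8 3D against 18.9, 15.5 and 19.0% on plastic. Its low values were in 3D 61 and 62, the libraries with the most fibroblast transcripts, and without 3D 4 it was lower in OVCAR8 (log2 -0.85, adjusted p = 0.00272, in a range of 0.00272 to 0.615 over the alternatives). RPL36AL had 49.9 to 55.8% of the RPL36A count in OVCAR4 3D against 48.1 to 54.6% on plastic. In Kuramochi it had 32.8 to 35.8% against 23.6 to 35.7% (log2 difference 0.20). RPL39L had 3.65 to 3.86% of the RPL39 count in OVCAR8 3D against 3.25 to 3.68% on plastic. In OVCAR4 it had 3.29 to 4.91% against 4.89 to 5.11% (log2 difference -0.34). Neither pair had the cultures apart in any line. RPL26L1 fell in Kuramochi and OVCAR4 (log2 -0.57 in both), as did RPL36AL (-0.66 and -0.70), and each of these calls ended when any 1 of several libraries was left out, Kuramochi plastic 4 and OVCAR4 plastic 4 among them (log2 -0.49 and -0.49 for RPL26L1, -0.53 and -0.52 for RPL36AL), and under every length trend. Paralogs share sequence with their counterparts, and since the handling of reads that fit both is unknown here, all these ratios are uncertain.

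**Figure D4:**
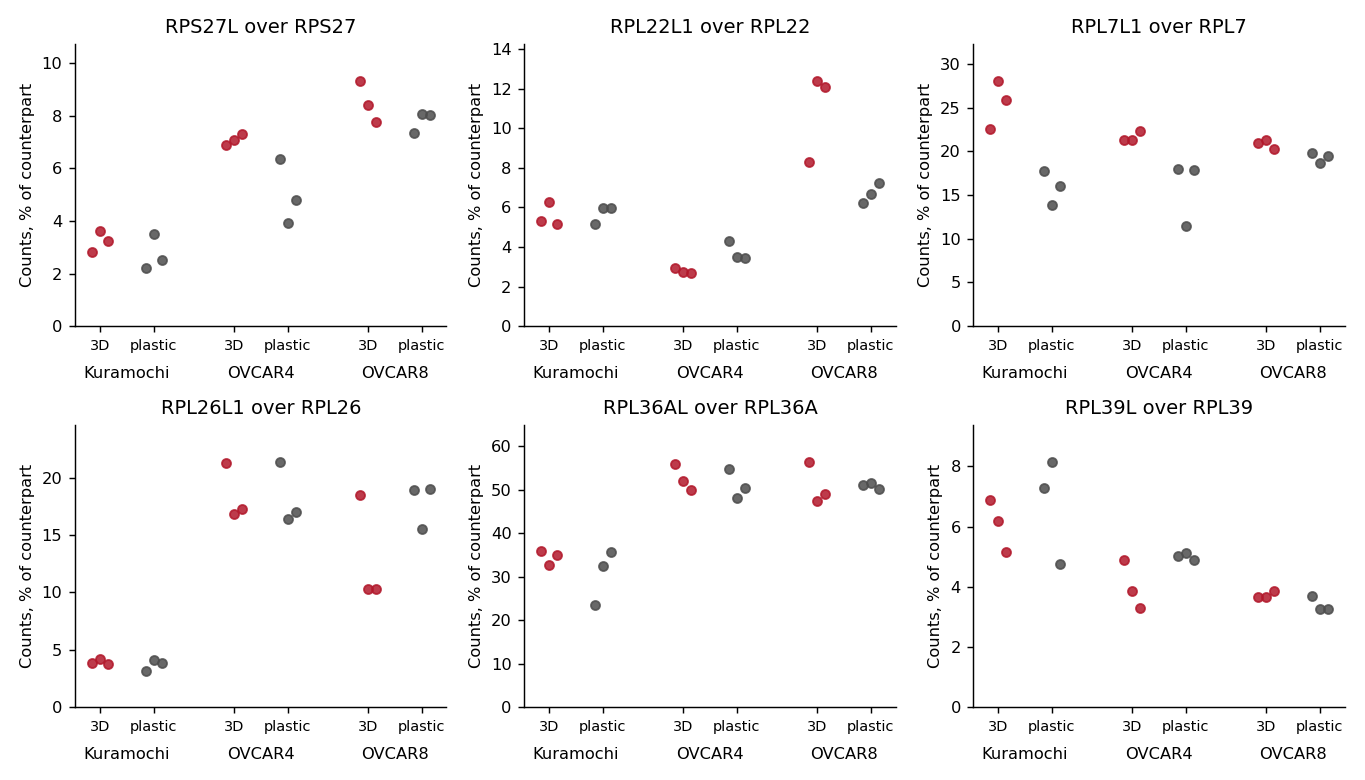
Counts of each paralog as a percent of the counts of its counterpart in the same library, in 3D (red) and on plastic (grey) of each line. RPL7L1 is higher in 3D in all 3 lines, RPL22L1 is higher in 3D in OVCAR8 and lower in OVCAR4, and RPL36AL and RPL39L overlap.

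Transcript length and coding length both moved with the culture difference across all genes. Among protein-coding genes outside the members, the median log2 difference in Kuramochi was -0.34 for genes with under 500 coding bases, -0.14 from 500 to under 1000, 0.05 from 1000 to under 2000 and 0.30 at 2000 and over. In OVCAR4 it was -0.29, -0.13, 0.08 and 0.36, and in OVCAR8 -0.14, -0.04, 0.02 and 0.12. The members are short, with a median of 453 coding bases and a maximum of 1281. At a mean of 100 CPM or more, the 216 other genes under 500 coding bases had medians of -0.46, -0.41 and -0.29 in the 3 lines, against -0.80, -0.69 and -0.25 for the 47 subunit proteins of that length. In OVCAR8 the order of these medians changed with length: for the 28 subunit proteins from 500 to under 1000 coding bases the median was -0.32, against -0.21 for other genes at 100 CPM or more, and for the 2 from 1000 to under 2000 it was -0.27, against -0.18. By transcript length, other genes at 100 CPM or more had medians of -0.62, -0.46 and -0.28 under 1000 bases in the 3 lines. At 4000 bases and over these were 0.28, 0.265 and -0.06. The 44 subunit proteins with transcripts under 1000 bases had medians of -0.76, -0.69 and -0.245. For the 17 at 2000 bases or more the medians were similar, at -0.795, -0.61 and -0.27. These are comparisons of medians with no test.

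With a smooth trend on coding length taken out of each library, an alternative added after seeing the data, the members' median was -0.49 in Kuramochi, -0.43 in OVCAR4 and -0.11 in OVCAR8, with 76, 68 and 6 genes lower. With a trend on transcript length it was -0.47, -0.38 and -0.15, with 74, 68 and 10 genes lower. Each of these medians is closer to 0 than the unadjusted one by a factor of more than 1.5. The part of transcript length in the members' difference was not tested beyond these values.

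**Figure D5:**
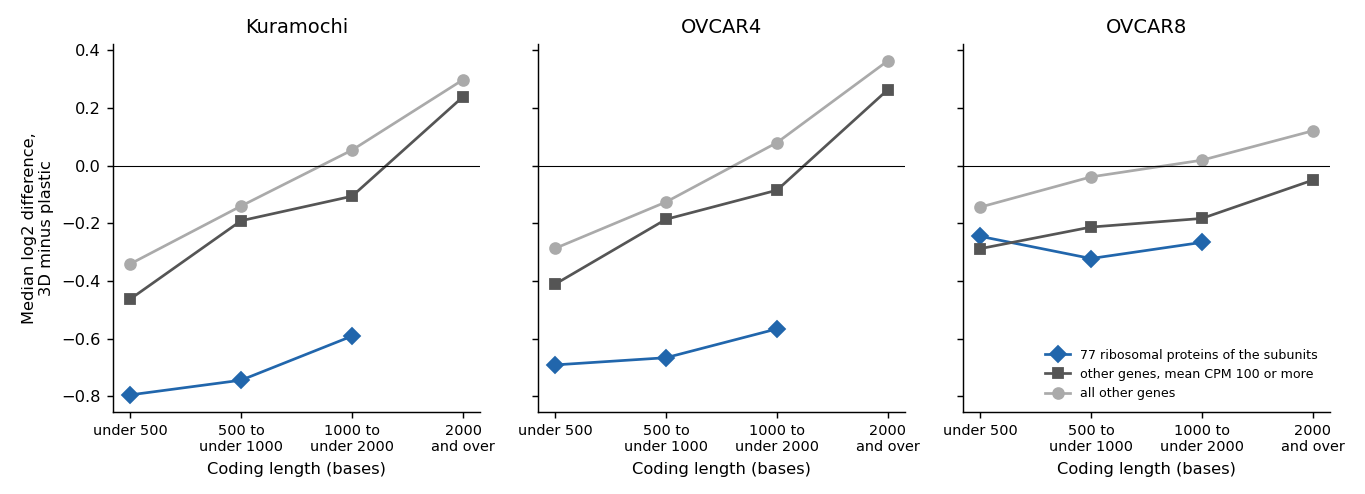
Median log2 difference, 3D minus plastic, by coding length of the canonical transcript in each line, for the 77 subunit proteins, for other protein-coding genes at a mean of 100 CPM or more and for all other protein-coding genes. The subunit proteins lie below both other curves in Kuramochi and OVCAR4, and beside the abundant genes in OVCAR8, and the other genes climb with length.

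The median log2 difference of the 47 members with a TOP start was -0.80 in Kuramochi, -0.68 in OVCAR4 and -0.25 in OVCAR8, and of the 20 tested members with another start -0.66, -0.63 and -0.30. The 878 other genes with a TOP start stood at -0.03, 0.00 and 0.00, and the 12384 other genes without one at 0.05, 0.09 and 0.03. RPS28, which had the largest fall in Kuramochi, was counted with another start, though its window holds pyrimidine runs beside the listed base. The part of the TOP start in these differences was not tested.

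Genes around the ribosome moved in part with the members. For the list counts that follow, 12.8, 11.9 and 3.32% of all genes were lower in Kuramochi, OVCAR4 and OVCAR8, and 14.4, 15.2 and 7.51% higher. FAU and RACK1, ribosomal proteins outside the symbol rule, were lower in Kuramochi (log2 -0.77 and -0.65) and in OVCAR4 (-0.63 and -0.62), and in OVCAR8 they were at -0.29 and -0.24 and did not pass. Of 21 translation factors and other mRNAs known for a TOP start, 18, 13 and 3 were lower in Kuramochi, OVCAR4 and OVCAR8 and 0 higher (median log2 -0.48, -0.43 and -0.22). PABPC1, the poly(A)-binding protein, and EEF1B2, an elongation factor subunit, were lower in all 3 lines, with log2 -0.36, -0.34 and -0.33 for PABPC1 and -0.69, -0.72 and -0.53 for EEF1B2. NPM1, a nucleolar chaperone of ribosome assembly, fell in Kuramochi (-0.60) and OVCAR4 (-0.63) and was at -0.46 in OVCAR8 (adjusted p = 0.0607). EIF3F, an initiation factor subunit, fell in Kuramochi (-0.55) and was at -0.30 and -0.33 in the other lines. Not all of this list moved alike. EEF1A1, EEF2, TPT1 and EIF4B, named after their values were seen, were not called in OVCAR4 (-0.015, -0.14, -0.17 and 0.001). EEF1A1 and EEF2 fell in Kuramochi (-0.36 and -0.42), and TPT1 and EIF4B were not called in any line. Mitochondrial ribosomal proteins, which serve a different ribosome, were lower in 58, 63 and 2 of 78 cases (median -0.59, -0.55 and -0.30).

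Ribosomal protein chaperones and importers were lower in 9, 10 and 2 of 21 genes and higher in 0. AAMP, a chaperone of RPS2 in human cells, was lower in all 3 lines (log2 -0.61, -0.56 and -0.49). TSR2, the chaperone of RPS26, and RPS19BP1, a binding partner of RPS19, were lower in Kuramochi (-0.48 and -0.68) and OVCAR4 (-0.44 and -0.87). GRWD1, the chaperone of RPL3, was lower in both of these lines as well (-0.64 and -0.52). Of 15 mTORC1 and TOP regulators, 5, 5 and 1 were lower and 1, 3 and 0 higher. AKT1S1, an inhibitory mTORC1 subunit, was lower in all 3 lines (-0.59, -0.56 and -0.61). MLST8, a core subunit of mTORC1, fell in Kuramochi (-0.78) and OVCAR4 (-0.60), RHEB, its activator, in OVCAR4 (-0.42) and the S6 kinase RPS6KB2 in Kuramochi (-0.48). Among those that rose, MTOR was higher in OVCAR4 (0.75), TSC1, which restrains mTORC1, in Kuramochi (0.49) and OVCAR4 (1.03), and its partner TSC2 in OVCAR4 (0.38). These 3 genes and LARP1 were named after their values were seen, and LARP1 was at 0.10, 0.05 and -0.04 and not called in any line.

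Of 25 p53 target genes, 3, 1 and 0 were lower and 8, 8 and 2 higher in Kuramochi, OVCAR4 and OVCAR8. Of all genes, 12.8, 11.9 and 3.32% were lower and 14.4, 15.2 and 7.51% higher. The 3 lower in Kuramochi and the 2 higher in OVCAR8 were near these shares. FDXR fell in Kuramochi and OVCAR4 (log2 -0.73 in both), and BAX and DDB2 fell in Kuramochi (-0.54 and -0.665). TNFRSF10B, a death receptor, rose in Kuramochi (log2 0.65) and OVCAR4 (0.92), and so did FAS, another death receptor (1.16 and 0.88). EDA2R, a receptor of the same family, was called higher in Kuramochi (3.27) and OVCAR8 (4.47), but at very low levels. It had 0.14, 0.34 and 0.20 CPM in Kuramochi 3D against 0.03, 0.03 and 0 CPM on plastic. In OVCAR8 it had 0.03, 0.44 and 0.41 CPM in 3D libraries 4, 61 and 62 against 0, 0 and 0.03 CPM on plastic. The DNA repair gene XPC rose in Kuramochi (0.35). CDKN1A and MDM2, named after their values were seen, were not called in any line, with adjusted p of 0.119 or more. Fibroblast markers rose with the same cultures, and their part in these differences was not tested.

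Between lines on plastic, the members differed in both directions, as did genes at large. In Kuramochi minus OVCAR4, 22 of 83 were lower and 26 higher, near the shares of all genes (30.1 and 31.6%), with a median log2 of 0.08. In OVCAR8 minus OVCAR4, 17 were lower and 37 higher (35.3 and 33.6% of all genes, median 0.22), and in OVCAR8 minus Kuramochi 22 were lower and 33 higher (35.5 and 32.2%, median 0.18). After the coding length trend was taken out the counts of lower and higher members were 19 and 43, 10 and 55, and 18 and 43.

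Kuramochi differed most from OVCAR4 in RPL17 and RPS4X, a small subunit gene of the X chromosome. RPL17 had 197, 272 and 273 CPM in Kuramochi against 784, 1209 and 878 CPM in OVCAR4 (log2 -1.95 ± 0.15, adjusted p = 4.24e-09), but it shares 32.9% of its exon bases with a read-through gene. RPS4X had 508, 716 and 768 CPM in Kuramochi against 1735, 2314 and 1678 CPM in OVCAR4 (log2 -1.52 ± 0.15, adjusted p = 9.55e-08). RPL12 was higher in Kuramochi, with 1173, 2017 and 1646 CPM against 554, 783 and 565 CPM in OVCAR4 (log2 1.35 ± 0.16, adjusted p = 1.06e-06). None of these genes overlapped between the lines. RPL26L1, RPL36AL and RPL35A were lower in Kuramochi than in OVCAR4 (log2 -1.42, -1.24 and -1.04), and RPL22L1, RPL37, RPS12 and RPL37A higher (1.19, 1.10, 1.02 and 0.95).

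OVCAR8 had low levels of RPL28, RPS20, RPS27 and RPL24. RPL28 had 216, 194 and 201 CPM in OVCAR8 against 977, 1178 and 951 CPM in OVCAR4 (log2 -2.34 ± 0.17, adjusted p = 1.16e-09). RPS20 had 279, 275 and 286 CPM in OVCAR8 against 1052, 1673 and 1442 CPM in Kuramochi (log2 -2.31 ± 0.16, adjusted p = 5.71e-10). The spread between libraries is small beside both differences. RPS27 and RPL24 were lower in OVCAR8 than in OVCAR4 (log2 -1.55 and -1.49) and than in Kuramochi (-1.30 and -1.45), RPL35A lower than in OVCAR4 (-1.36) and RPS19 lower than in Kuramochi (-1.28). Higher in OVCAR8 than in OVCAR4 were RPS15, RPL13, RPL7A, RPS18 and RPS23 (1.42, 1.09, 1.05, 1.04 and 0.96), and higher than in Kuramochi were RPL26L1, RPL29, RPL32, RPS7 and RPS29 (1.93, 1.22, 1.10, 1.03 and 0.99). RPL26L1 had 115, 101 and 118 CPM in OVCAR8 against 22.2, 32.4 and 32.9 CPM in Kuramochi. For RPS20, the mean on plastic was highest in Kuramochi, whose libraries overlapped those of OVCAR4, and lowest in OVCAR8, and in 3D the lines did not overlap, with 815, 743 and 779 CPM in Kuramochi, 692, 689 and 696 CPM in OVCAR4 and 234, 209 and 216 CPM in OVCAR8.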

How the data were processed

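Gene counts from RNA-seq of sorted cells were analysed for 18 libraries, 3 per line and culture. The authors trimmed reads with Trimmomatic 0.33, aligned them with TopHat2 2.1.0 to GRCh38 with the GENCODE annotation, and deposited raw counts per gene from htseq-count, which were used as deposited. Their strand setting and their handling of reads that map to several places are unknown here. Pseudogenes of ribosomal proteins held 8.17 to 10.2% as many counts per library as the members.

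Members and lists were chosen with earlier results of these data known. All 18 libraries were fitted as 6 groups in edgeR 4.0.16 (limma 3.58.1, R 4.3.3) with TMM factors, filterByExpr (minimum count 10, minimum total 15) and the robust quasi-likelihood test, and p-values were adjusted by Benjamini-Hochberg over 22023 genes, with a threshold of 0.05. Standard errors were derived from the fold change and its F statistic. P-values measure the spread between these libraries. Ratios of paralogs were compared in SciPy 1.17.1 by an exact permutation test, and the fit was tested on simulated data. Named members were the paralogs and counterparts, the stalk proteins, RPL5, RPL11, RPS6, the up to 5 largest called changes each way per comparison, those called in all 3 lines or by the interaction, and the 5 highest and lowest levels per length, and up to 4 called genes per list.

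Replicate numbers paired the Kuramochi cultures by their deviations from the group means (r = 0.169, 0.125 and 0.282 for equal numbers). In OVCAR4 they paired number 42 (0.325, against -0.27 to -0.183 with other numbers). Numbers 4 and 6 of OVCAR4 were not told apart (0.09 and 0.145 for equal numbers, 0.154 and 0.174 across them). The 3D libraries of these numbers differed by little more than sampling noise. The OVCAR8 cultures were not paired by number (0.095, 0.106 and -0.084). Alternatives were DESeq2 1.42.0, other scaling, no filter, separate fits, a replicate block, close libraries summed, and each library left out. Pseudogene counts added to their member and trends on transcript or coding length were added after seeing the data. Start windows and their sequences came from RefSeq on GRCh38.p14, and 17 members had none. Some results on single genes are not reported here.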

Additional observations from a re-analysis of the deposited data

Results flagged for a closer look

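The culture difference of RPL22L1 differed between lines by the edgeR interaction test (adjusted p = 0.0069), with log2 differences, 3D minus plastic, of -0.71 in Kuramochi, -0.92 in OVCAR4 and 0.43 in OVCAR8. All 3D libraries were below all plastic libraries in OVCAR4 and in Kuramochi, and above them in OVCAR8. The OVCAR8 difference by itself was not called, and the interaction of RPL22L1 did not pass with the close libraries summed. The culture difference of RPL12 also differed between lines (edgeR interaction, adjusted p = 0.0434), with -0.91, -0.69 and -0.01 in the same lines, and its adjusted p ran from 0.000215 to 0.324 over the alternatives.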

How the results depend on the processing

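Over 5950 alternative values of single named members, 5644 kept their direction and side of the threshold, 178 lost and 128 gained a call, and 0 reversed. Counts of members lower in Kuramochi ran over 78 to 82 with each library left out, and those in OVCAR4 over 64 to 80, with 44 when close libraries were summed. The count in OVCAR8, 5 as reported, was 9 by DESeq2, 3 with no filter, 45 in separate fits, 0 with close libraries summed, 10 with the transcript length trend, 13 with that trend and the block, 8 with the coding length trend and the block, and 0 to 11 with each library left out. Members higher in OVCAR8 were 1 in separate fits, with the coding length trend, and with either trend and the block, and 0 to 1 with each library left out. In OVCAR4, 1 was higher with the coding length trend and the block. Members called by the interaction were 11 by DESeq2, 34 with no filter, 0 with close libraries summed, 4 with the transcript length trend, 5 with the coding length trend, 4 with that trend and the block, and 1 to 35 with each library left out. On plastic, the coding length trend gave 43 members higher in Kuramochi than in OVCAR4 and 10 lower in OVCAR8 than in OVCAR4. Length trends were chosen after seeing the data. Summing close libraries leaves fewer samples, and the cause of the other shifts was not tested.

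With replicate numbers as a block, 81 members were lower in Kuramochi, 78 in OVCAR4 and 3 in OVCAR8, and the interaction called 1. Different lines share no block.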
